A study of Mus musculus with 8 samples.

Results

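Expression of 7 genes of alveolar type 1 cells (Ager, Hopx, Rtkn2, Pdpn, Akap5, Clic5 and Emp2) was followed in cells sorted from tumor-bearing mouse lungs by their protease activity. The genes were chosen by name, as rows of a bulk RNA-seq count table with 27179 gene identifiers, and all 7 were found and tested. Both populations came from C57BL/6 (C57BL/6J in the study's methods) female mice of the Eml4-Alk model, in which an intratracheal adenovirus carrying Cas9 and guide RNAs rearranges Eml4 and Alk to form lung tumors, and the mice were 18 to 22 weeks old and 11 to 12 weeks past induction. Every mouse had received the PEGylated probe QZ1, whose fluorescence is released by protease cleavage, and the lungs were taken 2 h after the injection. Live cells without CD45 or CD11b on their surface were divided by probe signal, gated against the epithelial surface protein EpCAM, into QZ1-hi (4 libraries) and QZ1-lo (4 libraries) populations. The rearrangement, the probe and the gate against CD45 and CD11b were common to both populations, so neither is a healthy or untreated control, and neither is a purified alveolar type 1 population.

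Alveolar type 1 cells are the very thin, spread-out epithelial cells that cover most of the gas exchange surface. They can arise from alveolar type 2 cells, the cuboidal cells that make surfactant. Type 1 identity depends on the lung transcription factor NKX2-1 together with YAP and TAZ, which act through TEAD proteins. The 7 genes encode a cell surface receptor and membrane proteins (Ager, Pdpn, Emp2), a protein of the cell cortex (Clic5), signaling proteins (Akap5, Rtkn2) and a transcriptional cofactor (Hopx). Pdpn is not restricted to these cells, since lymphatic endothelium, mesothelium and some fibroblasts also make podoplanin. In these mixed populations the counts of the other genes cannot be assigned to type 1 cells alone either.

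The sequence before the start site is shown for 3 of the genes: Ager, the most abundant per kilobase; Hopx, the only one with a match to a searched motif; and Pdpn, the only one higher in QZ1-hi cells by the test described below. The windows are 250 bases, read 5′ to 3′ on the gene's strand, from RefSeq promoters of GRCm38.p6. They lie at chr17:34597600-34597849 (plus strand, Ager), chr5:77115124-77115373 (minus strand, the upstream of 2 Hopx starts) and chr4:143299565-143299814 (minus strand, Pdpn), and capitals mark a searched motif.
Ager: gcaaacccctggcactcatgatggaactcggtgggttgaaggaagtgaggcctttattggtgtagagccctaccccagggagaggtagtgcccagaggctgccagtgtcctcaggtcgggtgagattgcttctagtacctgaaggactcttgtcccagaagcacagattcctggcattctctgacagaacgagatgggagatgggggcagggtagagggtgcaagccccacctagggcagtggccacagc
Hopx: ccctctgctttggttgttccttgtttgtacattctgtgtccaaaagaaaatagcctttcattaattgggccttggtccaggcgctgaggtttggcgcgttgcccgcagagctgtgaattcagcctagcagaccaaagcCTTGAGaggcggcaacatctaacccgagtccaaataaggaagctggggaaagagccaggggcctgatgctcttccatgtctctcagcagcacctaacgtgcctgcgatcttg
Pdpn: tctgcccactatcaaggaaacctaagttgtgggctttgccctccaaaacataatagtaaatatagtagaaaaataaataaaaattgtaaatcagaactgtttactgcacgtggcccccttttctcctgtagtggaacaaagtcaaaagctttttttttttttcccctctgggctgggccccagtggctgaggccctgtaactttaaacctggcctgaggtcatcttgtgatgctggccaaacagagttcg
RefSeq held promoter windows of 300 bases (250 before the start and 50 after) for 6 of the 7 genes, all but Rtkn2, with 2 for Hopx, which made 7 windows. The letters GGAATG, a core of TEAD sites, were found on either strand in 0 of 7 windows, against 14.7% of 32851 mouse promoters. The letters CTCAAG, a core of NKX2-1 sites, were found as their reverse complement CTTGAG in 2 of 7 windows, both of Hopx, at 112 bases before one start and 37 bases after the other, against 15.9% of all promoters. The TATA box letters TATAAA were present in 0 of 7, against 13.6%. The motifs do not overlap each other in these windows, and a match or its absence describes only these letters.

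Total counts per library ran from 18380918 to 26847938. Mitochondrial and ribosomal RNA genes took 44 to 65.7% of counts in QZ1-hi and 34.3 to 53.5% in QZ1-lo libraries, and removing them before scaling left the call of each of the 7 genes as it was. Of 15583 genes tested with edgeR's quasi-likelihood test, 1540 (9.88%) were called higher and 1280 (8.21%) lower in QZ1-hi at a Benjamini-Hochberg adjusted p under 0.05. Scaling by library size alone, which moves the median over all genes from 0.02 to -0.44 on the log2 scale, gave 882 higher and 2509 lower. Levels below are CPM, counts scaled to the library total and then by the trimmed mean of M values (TMM), unless said otherwise, and fold changes are QZ1-hi over QZ1-lo. In bulk samples, fewer cells of a type and less RNA per cell cannot be told apart.

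On this scale, 4 of the 7 genes were lower in QZ1-hi cells (Ager, Rtkn2, Hopx and Emp2), 1 was higher (Pdpn) and 2 passed no threshold (Akap5 and Clic5). The median log2 fold change of the 7 was -0.50, against 0.02 over all genes tested. The QZ1-hi libraries lay wholly below the QZ1-lo libraries for 4 genes (Ager, Rtkn2, Akap5 and Emp2) and wholly above for Pdpn, where 10.7% of all genes lay wholly below and 11.9% wholly above. TMM scaling sets these directions relative to the bulk of the genes. Scaled to the library total alone, 5 of the 7 were called lower (the same 4 and Akap5, at -0.96 with an edgeR adjusted p of 0.0135) and 0 were higher. On that scale 2509 of all genes were called lower and 882 higher, with a median of -0.44. There 2 of the 7 lay wholly below (Hopx and Rtkn2), and Ager, Akap5, Emp2 and Pdpn overlapped. The share of all genes lying wholly below on that scale was not counted. The directions also depended on the reference genes, as described further on: relative to pan-epithelial genes 0 of the 7 were lower and 5 higher, where 0.924% of all genes were lower and 74.0% higher, and relative to alveolar type 2 genes 5 were lower and 0 higher.

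**Figure D1:**
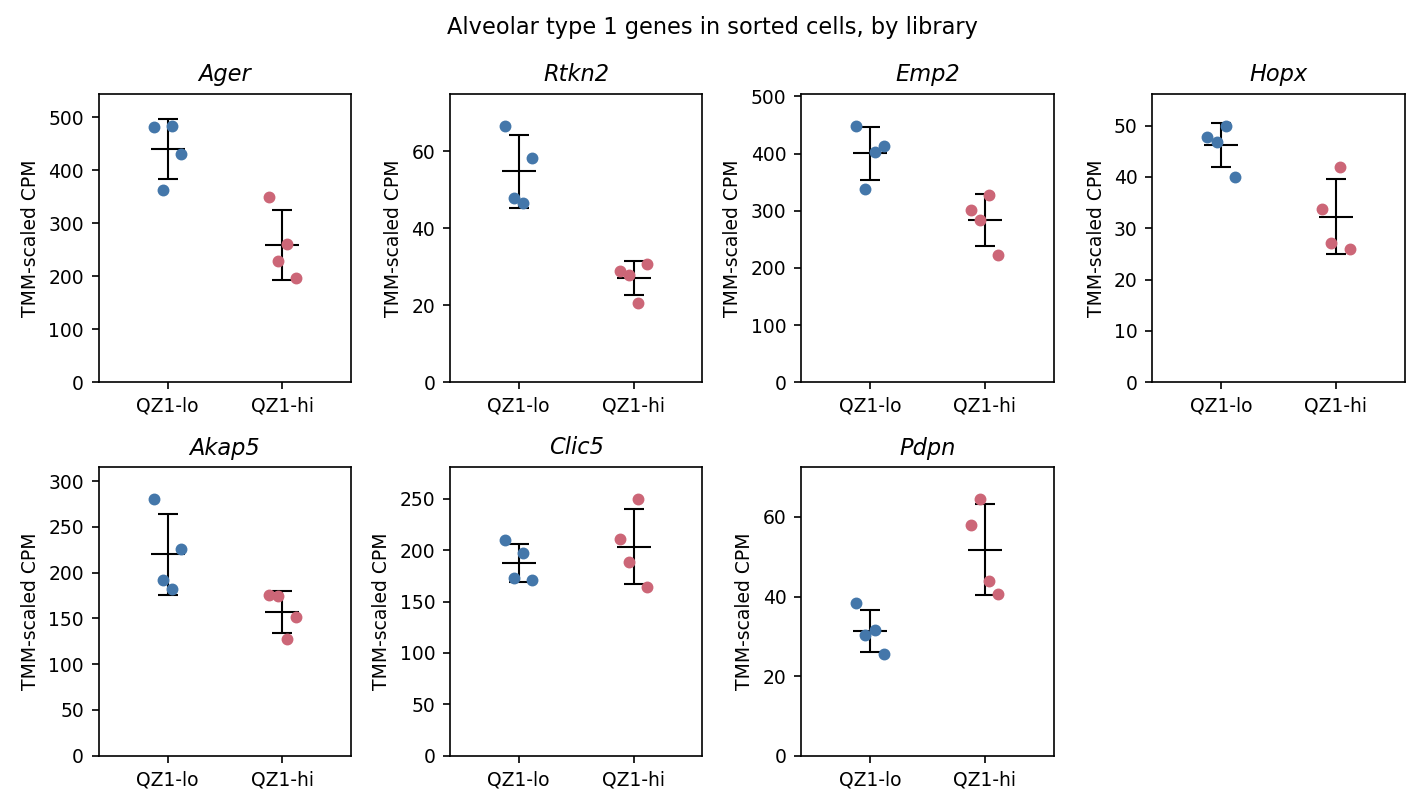
TMM-scaled CPM of each of the 7 alveolar type 1 genes in the 4 QZ1-lo and 4 QZ1-hi libraries. Points are libraries, and the black bars are the mean and SD. The QZ1-hi points lie below every QZ1-lo point for Ager, Rtkn2, Emp2 and Akap5 and above for Pdpn on this scale, while Hopx and Clic5 overlap.

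Ager (Entrez 11596, chr17:34597862-34600936 on the plus strand) encodes RAGE, a multiligand receptor of the immunoglobulin family that sits on the basal side of type 1 cells. Its level was 349.9, 229, 261 and 197 CPM in QZ1-hi libraries 1 to 4 and 481, 362, 484 and 431 CPM in QZ1-lo libraries 1 to 4. All QZ1-hi libraries were below all QZ1-lo libraries. The means were 259 ± 66.0 and 439.7 ± 57.3 CPM (SD over 4 libraries each), and the log2 fold change was -0.76 (SE 0.18, 95% interval -1.16 to -0.37, edgeR adjusted p = 0.0120), with QZ1-lo 1.70-fold higher. The call held when each library was left out in turn, with values from -0.94 to -0.63.

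Emp2 (Entrez 13731, chr16:10281749-10313968, minus strand) encodes a small tetraspan membrane protein of the family of peripheral myelin protein 22. Its level was 302, 283, 328 and 222 CPM in the QZ1-hi libraries and 449, 338, 402 and 413 CPM in the QZ1-lo libraries. The groups did not overlap, although QZ1-hi library 3 and QZ1-lo library 2 were close. The log2 fold change was -0.50 (SE 0.15, 95% interval -0.82 to -0.18, edgeR adjusted p = 0.0348), with QZ1-lo 1.41-fold higher. The call was lost in 6 of 8 fits that left out a library (adjusted p from 0.0517 to 0.102), all but those without QZ1-lo library 2 or QZ1-hi library 3.

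Pdpn (Entrez 14726, chr4:143267431-143299564, minus strand) encodes podoplanin, a mucin-like membrane glycoprotein that binds the ERM proteins ezrin and moesin. Its level was 58.1, 64.5, 43.9 and 40.6 CPM in the QZ1-hi libraries and 38.3, 30.3, 31.7 and 25.5 CPM in the QZ1-lo libraries. The groups did not overlap, and the nearest were QZ1-hi library 4 and QZ1-lo library 1, with QZ1-hi above. The log2 fold change was 0.72 (SE 0.18, 95% interval 0.33 to 1.11, edgeR adjusted p = 0.0157), which is 1.65-fold higher in QZ1-hi. Without QZ1-hi library 2 it was 0.58 with an adjusted p of 0.0525, and with scaling by library size alone it was 0.26 with an adjusted p of 0.512.

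Clic5 (Entrez 224796, chr17:44188584-44280172, plus strand) encodes a chloride intracellular channel family protein found with ezrin at the cell cortex. Its level was 211, 188, 249.7 and 164 CPM in the QZ1-hi libraries and 209.6, 173, 197 and 171 CPM in the QZ1-lo libraries. The groups overlapped, and QZ1-hi held both the highest and the lowest library. The log2 fold change was 0.11 (SE 0.14, 95% interval -0.20 to 0.43, edgeR adjusted p = 0.681), an interval that leaves room for modest changes either way. Its sign turned without QZ1-hi library 3 (-0.03) and under library size scaling (-0.33), and neither value was called.

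Rtkn2 (Entrez 170799, chr10:67979570-68059740, plus strand) encodes a signaling protein of the rhotekin family. Its level was 28.8, 27.8, 20.6 and 30.7 CPM in the QZ1-hi libraries and 66.7, 47.8, 46.5 and 58.3 CPM in the QZ1-lo libraries. The groups were far apart, with the highest QZ1-hi library well under the lowest QZ1-lo library. The log2 fold change of -1.02 (SE 0.16, 95% interval -1.38 to -0.66, edgeR adjusted p = 0.00146) was the largest in size of the 7 on this scale, at 2.03-fold higher in QZ1-lo. It was called in all 8 leave-one-out fits, from -1.09 to -0.91.

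Akap5 (Entrez 238276, chr12:76324891-76334153, plus strand) encodes an anchoring protein that holds protein kinase A and calcineurin at the membrane. Its level was 176, 174, 127 and 152 CPM in the QZ1-hi libraries and 280.5, 192, 182 and 226 CPM in the QZ1-lo libraries. The groups did not overlap, but the lower QZ1-lo libraries were close to the upper QZ1-hi ones. The log2 fold change of -0.48 (SE 0.16, 95% interval -0.84 to -0.13) missed the threshold with edgeR (adjusted p = 0.0625) and passed it with DESeq2 (adjusted p = 0.0309) and limma voom (adjusted p = 0.0314).

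Hopx (Entrez 74318, chr5:77086988-77115121, minus strand) encodes a homeodomain-only protein that does not bind DNA itself and works through other transcription factors. Its level was 33.8, 27.2, 42.0 and 26.0 CPM in the QZ1-hi libraries and 47.8, 46.8, 50.0 and 40.0 CPM in the QZ1-lo libraries. The groups overlapped, because QZ1-hi library 3 was above QZ1-lo library 4. The log2 fold change was -0.52 (SE 0.16, 95% interval -0.87 to -0.16, edgeR adjusted p = 0.0487), with QZ1-lo 1.43-fold higher, and the call was lost in 7 of 8 leave-one-out fits (adjusted p from 0.0502 to 0.129), all but the fit without QZ1-hi library 3. Exons of Hopx overlap those of Hopxos on the opposite strand over up to 412 bases. Through this overlap 24% of its exonic stretches of 50 bases recur in another gene, all of them in Hopxos. The strand setting of the counting was not given, so part of its count is uncertain. For Rtkn2 the share was 2.69%, including an overlap of 109 bases with Gm16212 on the opposite strand, and for the others it was 1.35% or less.

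Levels were compared between genes per kilobase of exon. Ager was the highest of the 7 in all 8 libraries, at 91.9 to 163 CPM per kb in QZ1-hi and 169 to 226 in QZ1-lo. Rtkn2 was the lowest in all 8, at 3.72 to 5.53 CPM per kb in QZ1-hi and 8.38 to 12.0 in QZ1-lo. Emp2 was second in 7 of 8 libraries, with 25.6 to 37.9 CPM per kb in QZ1-hi and 39.1 to 51.9 in QZ1-lo. Pdpn had rank 6 in every QZ1-lo library (14.0 to 21.1 CPM per kb) and rank 2, 3 or 5 in the QZ1-hi libraries (22.4 to 35.5 CPM per kb). The ranges of Hopx (17.1 to 27.7), Akap5 (18.6 to 25.8), Clic5 (18.6 to 28.4) and Pdpn overlapped in QZ1-hi, so their order there was not separated by the spread between libraries. The order also depended on the length used. Per kilobase of the longest transcript, the QZ1-hi means were 53.8 for Emp2, 34.6 for Clic5 and 28.5 for Pdpn. Ager (138) was still the highest and Rtkn2 (6.09) the lowest.

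Ratios of raw counts within a library do not depend on scaling. Pdpn per Ager was 0.166, 0.282, 0.169 and 0.207 in the QZ1-hi libraries and 0.0795, 0.0836, 0.0655 and 0.0592 in the QZ1-lo libraries, without overlap. Clic5 per Emp2 was 0.716 ± 0.0428 in QZ1-hi and 0.471 ± 0.0430 in QZ1-lo (SD, n = 4 each), again without overlap, and Clic5 per Ager was 0.803 ± 0.148 against 0.429 ± 0.0366. Pdpn and Clic5 were therefore higher relative to Ager in every QZ1-hi library than in any QZ1-lo library. The ratios of Hopx, Rtkn2, Akap5 and Emp2 to Ager overlapped between the groups, with means of 0.127 and 0.106, 0.110 and 0.125, 0.631 and 0.503, and 1.12 and 0.913 in QZ1-hi and QZ1-lo.

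**Figure D2:**
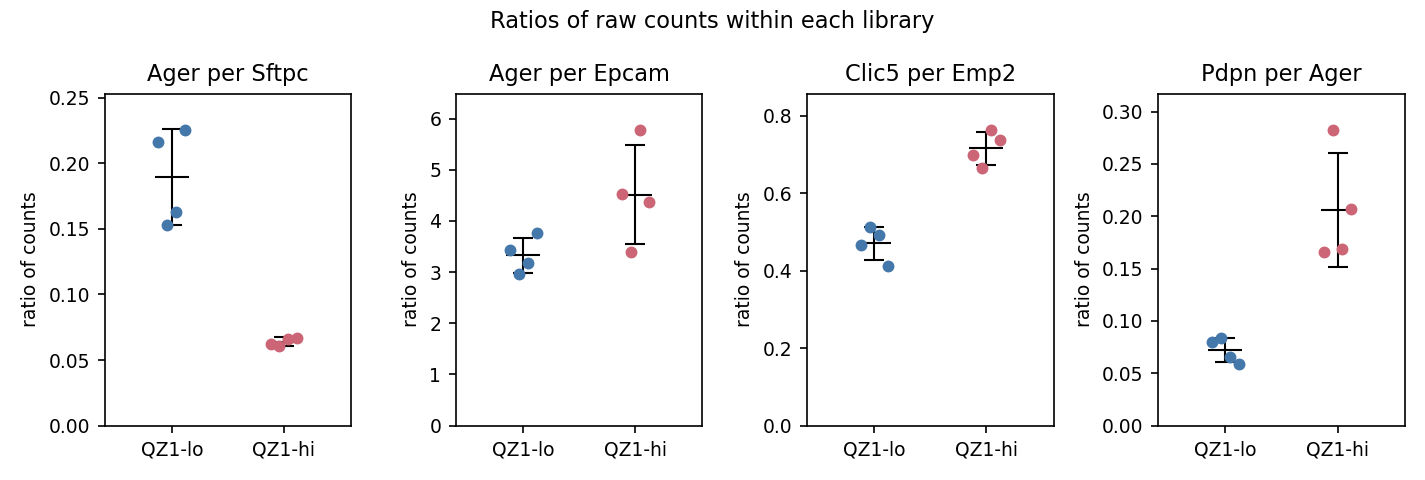
Ratios of raw counts within each of the 4 QZ1-lo and 4 QZ1-hi libraries, with the mean and SD as black bars. Ager per Sftpc is lower in every QZ1-hi library, Ager per Epcam overlaps, and Clic5 per Emp2 and Pdpn per Ager are higher in every QZ1-hi library. Sftpc was itself called higher in QZ1-hi with TMM scaling.

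Genes shared by epithelial cells of all kinds were mostly lower in QZ1-hi with TMM scaling. Of 10 such pan-epithelial genes 9 were lower and 0 higher (median log2 fold change -1.19), among them Epcam at -1.17 (adjusted p = 0.00158, edgeR). To compare the 7 genes relative to these, libraries were rescaled so that the mean log2 level of those 10 genes was equal. On that scale 5 of the 7 were called higher in QZ1-hi, as were 74.0% of all genes, and 0 were called lower, as were 0.924% of all genes. The log2 fold changes were 1.87 for Pdpn (edgeR adjusted p = 8.27e-06), 1.30 for Clic5 (0.000375), 0.67 for Emp2 (0.0177), 0.67 for Hopx (0.0228) and 0.66 for Akap5 (0.0155). Ager at 0.38 (95% interval -0.08 to 0.83, adjusted p = 0.121) and Rtkn2 at 0.13 (-0.37 to 0.64, adjusted p = 0.622) were not called. The median of the 7 was 0.67 and that of all genes 1.19, so their median lay below that shift of all genes. The calls of Hopx, Akap5 and Emp2 on this scale were each lost in some leave-one-out fits, down to 2 of 7 called without QZ1-lo library 3 and 3 of 7 without QZ1-lo library 2 or QZ1-hi library 3.

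Against alveolar type 2 genes the sign turned for all of the 7 but Pdpn. Of 11 type 2 genes 2 were higher in QZ1-hi with TMM scaling, Sftpc (surfactant protein C, log2 fold change 0.78, edgeR adjusted p = 0.0231) and Slc34a2 (a phosphate transporter, 0.88, adjusted p = 0.0165), 0 were lower and the list's median was 0.33. With libraries scaled to equal levels of those 11 genes, 5 of the 7 type 1 genes were lower in QZ1-hi (9.29% of all genes were) and 0 higher (6.36% of all genes). The log2 fold changes were -1.26 for Rtkn2 (adjusted p = 0.00267), -1.04 for Ager (0.00180), -0.75 for Hopx (0.0269), -0.75 for Emp2 (0.0268) and -0.74 for Akap5 (0.0440), all from edgeR. Clic5 was at -0.12 (95% interval -0.57 to 0.32, adjusted p = 0.769) and Pdpn at 0.47 (0.02 to 0.92, adjusted p = 0.165). The ratio of Ager to Sftpc counts was 0.0623, 0.0606, 0.0664 and 0.0670 in the QZ1-hi libraries and 0.216, 0.153, 0.163 and 0.225 in the QZ1-lo libraries. The QZ1-hi ratios were nearly equal to each other and all under the QZ1-lo ratios. Sftpc was 1 of the 2 type 2 genes called higher, so the size of this gap belongs to Sftpc and not to the list. Of the 11 type 2 genes, 9 had a positive log2 fold change with TMM scaling. Sftpd (-0.37) and Muc1 (-0.27) were negative and not called. Ager per Epcam was 4.52 ± 0.974 in QZ1-hi and 3.33 ± 0.343 in QZ1-lo, and the groups overlapped.

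**Figure D3:**
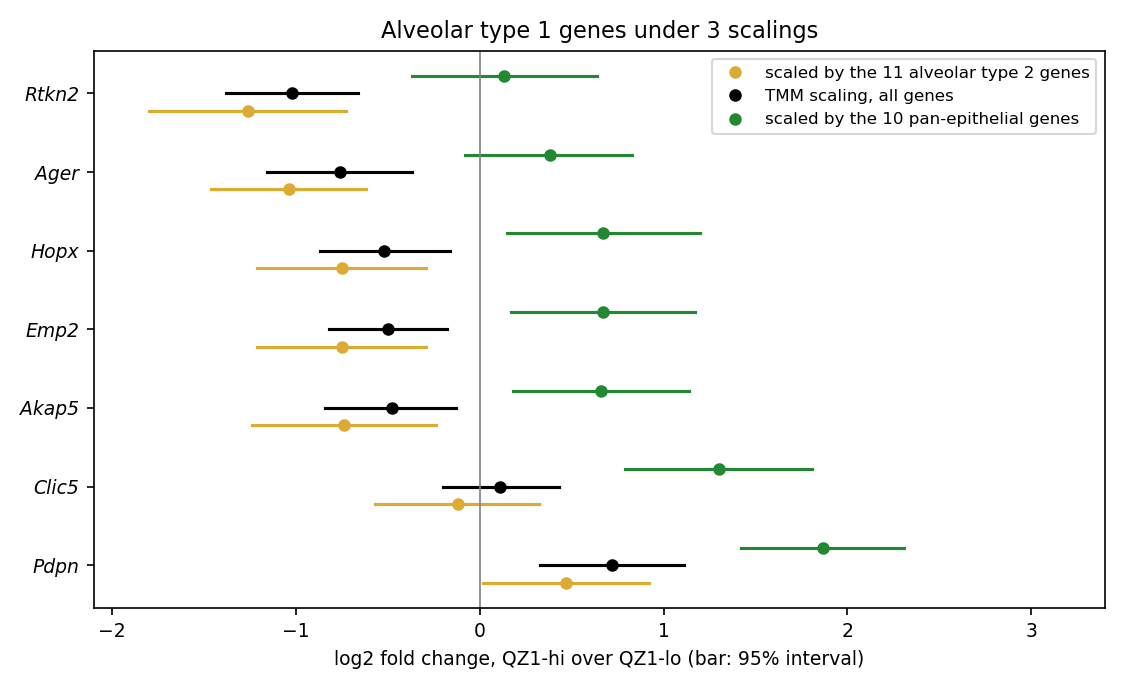
Log2 fold change, QZ1-hi over QZ1-lo, of the 7 alveolar type 1 genes with its 95% interval under TMM scaling, scaling to 10 pan-epithelial genes and scaling to 11 alveolar type 2 genes (4 libraries per group). Ager, Rtkn2, Hopx, Emp2 and Akap5 sit below 0 with TMM or type 2 scaling and above 0 with pan-epithelial scaling, and Pdpn is above 0 in all 3.

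Most of the other genes used to mark alveolar type 1 cells were also lower in QZ1-hi with TMM scaling. Of 15 such genes 11 were called lower, 1 higher and 3 neither, with a median log2 fold change of -1.02. Aqp5, a water channel, was at -0.98 (edgeR adjusted p = 0.00139), Cldn18, a tight junction claudin, at -1.02 (0.00198), and Lmo7, a junction-associated LIM domain protein, at -1.79 (0.000144). The study lists Aqp5 among its alveolar type 2 markers, so its level cannot be read as that of type 1 cells alone. Spock2, a matrix proteoglycan, was the one called higher (0.84, adjusted p = 0.0374), as Pdpn was among the 7. The uncalled genes were Igfbp2 (-0.31), Agrn (-0.41) and Vegfa (-0.20). Relative to pan-epithelial genes the median of the 15 was 0.11, with 3 called higher and 1 lower. The median over all genes was 1.19 there, with 74.0% called higher and 0.924% lower. The direction of the 15 thus also depended on the scale.

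The transcriptional regulators of type 1 identity split, and the study lists Nkx2-1 among its alveolar type 2 markers, so it is not specific to type 1 cells. Bulk samples do not show which cells made the other regulators either. Of 8, 5 were lower in QZ1-hi and 0 higher: Nkx2-1 (-0.90, edgeR adjusted p = 0.00625), Tead1 (-0.76, 0.0110), Klf5 (-1.33, 0.000263), Foxa1 (-1.48, 0.00138) and Foxa2 (-0.99, 0.0112). Yap1 (-0.01), Wwtr1, the gene for TAZ (0.34), and Gata6 (-0.12) were not called. Relative to pan-epithelial genes none of the 8 was lower and those 3 were higher, at 1.17, 1.53 and 0.99. On that scale 74.0% of all genes were called higher and 0.924% lower, and the median over all genes was 1.19. Of 8 genes of the transitional state through which type 2 cells pass toward type 1, 7 were lower and 0 higher with TMM scaling (median -1.41), including Krt8 (-1.50) and Cldn4 (-2.31), and relative to pan-epithelial genes 2 were higher and 2 lower (median -0.27).

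Most markers of lymphatic endothelium, mesothelium and fibroblasts were, like Pdpn, higher in QZ1-hi. Of 4 lymphatic endothelial genes 3 were called higher in QZ1-hi (median log2 fold change 3.93), and their summed level was 63.7 to 166 CPM in QZ1-hi and 3.46 to 15.6 CPM in QZ1-lo. All 5 mesothelial genes were called higher (median 2.91), with sums of 41.9 to 290.2 CPM and 6.06 to 39.2 CPM, and 5 of 6 fibroblast genes (median 3.36), with sums of 789 to 1640.3 CPM and 20.5 to 180.1 CPM. QZ1-hi library 2, the highest for Pdpn at 64.5 CPM, had the highest mesothelial sum (290.2 CPM) and the lowest lymphatic sum of its group (63.7 CPM). QZ1-hi library 3, with the highest lymphatic and fibroblast sums and the lowest mesothelial sum of its group (41.9 CPM), had 43.9 CPM of Pdpn. No marker of the lymphatic or mesothelial lists was at 0 in any library, but mesothelial Wt1 had 1 count and Upk1b 3 counts in QZ1-lo library 4. Tcf21 of the fibroblast list was at 0 in QZ1-lo libraries 1 and 4. The part of these cells in the Pdpn difference was not tested.

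The remaining lists bear on the total against which the 7 genes are scaled. All 6 blood endothelial genes (median 3.39) and 5 of 6 genes of aerocytes, the alveolar capillary cells that lie against type 1 cells (median 2.94), were higher in QZ1-hi, and 3 of 6 pericyte and smooth muscle genes were higher and 1 lower (median 2.41). All 5 club cell genes (median -1.89) and all 5 ciliated cell genes (median -2.00) were lower. Of these, 2 in each list were also lower relative to pan-epithelial genes, as were 0.924% of all genes. Of 6 hematopoietic genes 0 were called (median -0.05), with sums of 147 to 348 CPM in QZ1-hi and 167 to 255 CPM in QZ1-lo. Transcripts of the 2 markers gated against were present in all libraries, with Ptprc (CD45) at 71.4 to 222 CPM in QZ1-hi and 93.4 to 161 CPM in QZ1-lo and Itgam (CD11b) at 29.4 to 54.8 CPM and 42.4 to 50.4 CPM. Of 3 basal cell genes 2 could be tested, and neither was called (median -0.30). The part of this mix in the differences of the 7 genes was not tested.

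**Figure D4:**
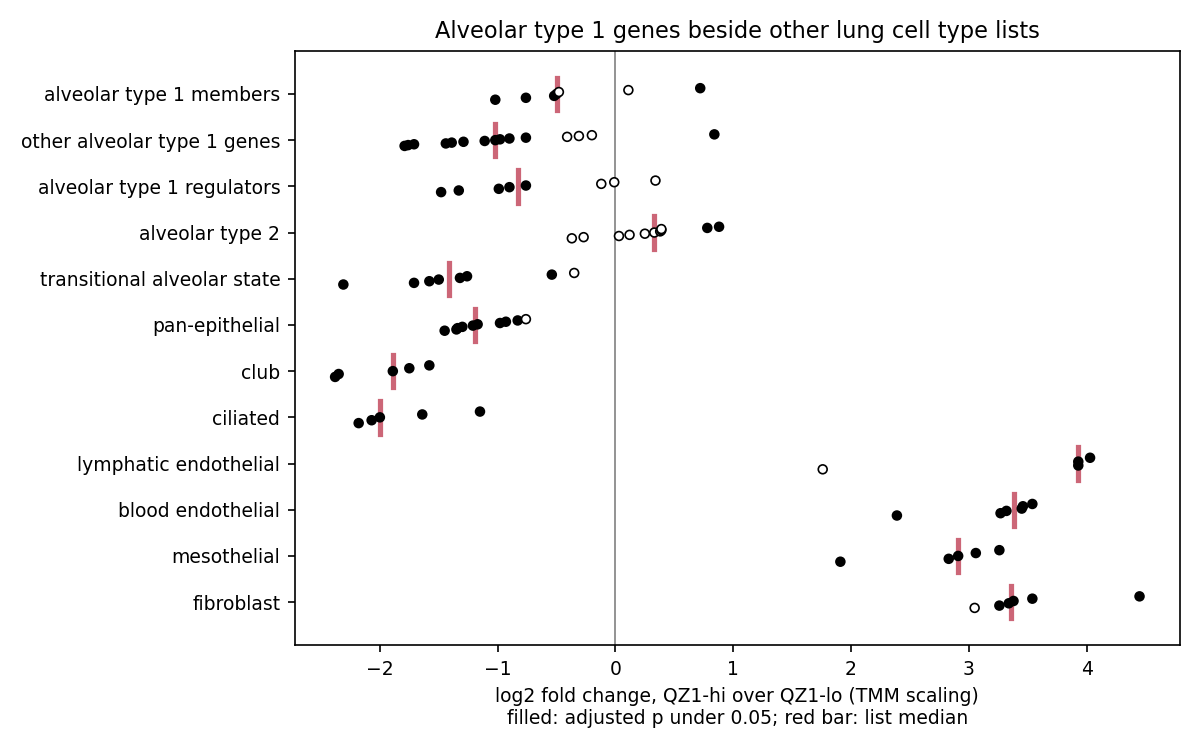
Log2 fold change (TMM scaling) of each tested gene in the 7 alveolar type 1 genes and 11 other lists, filled where the adjusted p was under 0.05, with the list median as a red bar. The 7 genes spread from -1.02 to 0.72 around a median of -0.50, between the pan-epithelial median of -1.19 and the type 2 median of 0.33, while the lymphatic and blood endothelial, mesothelial and fibroblast genes shown lie above 1.

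Paralogs of the 7 genes were called in both directions with TMM scaling. Of 9 paralogs 3 were higher in QZ1-hi, 2 lower and 4 not called (median 0.71). Relative to pan-epithelial genes 7 were higher and 0 lower, near the shares over all genes of 74.0% higher and 0.924% lower. In the Clic family, Clic4, which endothelial cells use abundantly, was higher (log2 fold change 0.79, edgeR adjusted p = 0.0118), and Clic3 (14.4 to 22.8 CPM in QZ1-hi and 35.9 to 39.7 CPM in QZ1-lo, adjusted p = 0.00149) and Clic6 (-1.54, adjusted p = 0.00134) were lower, while Clic1 was at -0.19 and Clic5 at 0.11. The ratio of Clic5 to Clic4 counts was 0.651 ± 0.0752 in QZ1-hi and 1.02 ± 0.0816 in QZ1-lo, without overlap. Pmp22, of the family of Emp2, was higher at 1.66 (adjusted p = 0.000548), and Emp1 (0.71) and Emp3 (0.74) were not called. The anchoring protein gene Akap12 was higher at 3.16 (adjusted p = 0.000590), beside -0.48 for Akap5. Rtkn, the paralog of Rtkn2, was at -0.19 and not called.

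Genes for proteins that work with the 7 products gave 2 higher, 3 lower and 6 not called of 11 with TMM scaling (median -0.04). Relative to pan-epithelial genes 9 were higher and 0 lower, near the shares over all genes of 74.0% higher and 0.924% lower. Among the ERM proteins that link podoplanin and CLIC5 to actin, Ezr was lower (-1.10, edgeR adjusted p = 0.000799), Rdx was higher (0.48, 0.0162) and Msn was at -0.00. Of the kinase and phosphatase subunits that AKAP5 anchors, Prkar2a (-0.79, adjusted p = 0.00134) and Ppp3ca (-0.39, 0.0478) were lower and Prkar2b (0.46) was not called. The RAGE ligand genes Hmgb1 (-0.25) and S100b (0.34), and Rhoa (-0.04) and Srf (-0.14), were not called. Cav1, the caveolae gene expressed in both type 1 and endothelial cells, was higher in QZ1-hi at 2.82 (adjusted p = 0.000278), where Ager was lower on the same scale.

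Patterns most like each of the 7 were ranked by Pearson correlation of log2 CPM over the same 8 libraries among 14037 genes. The libraries share their 2 groups and their scaling, so these values are descriptions. The nearest genes were BC016579 and Ap1m2 for Ager (r = 0.988 for both), Sfta3-ps for Rtkn2 (0.995), Lpp for Akap5 (0.982), Fdx1 for Emp2 (0.975) and Gm6517 for Hopx (0.985). For Pdpn they were Abraxas2 (0.975), Ssr3 (0.971) and Nucb1 (0.970), and for Clic5 Gnb2 (0.976). The genes nearest to Rtkn2 and Akap5 included members of the type 1 list, Gramd2 (0.985) for Rtkn2 and Col4a3 (0.977) for Akap5, and the pan-epithelial gene Ap1m2 was among those nearest to Ager.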

How the data were processed

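Bulk RNA-seq of 4 QZ1-hi and 4 QZ1-lo populations was analysed, grouped by the labels. Files deposited by the authors hold raw counts for each Entrez gene identifier, made with Rsubread from reads of a stranded total RNA kit. The submitters' processing notes name mm10 and DESeq2, and the aligner and strand setting were not given in the sources used here. The members and lists were chosen with earlier results of these data known. Of 27179 identifiers 25275 were given a symbol, and all 131 genes of 18 lists matched. Named genes were the 7 members, genes of those lists, genes overlapping or sharing sequence with a member, and the 3 nearest to each member by correlation among genes with a mean CPM of at least 1.

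Counts were tested in R 4.3.3 with edgeR 4.0.16 (TMM, filterByExpr with minimum count 10 and total 15, quasi-likelihood test, Benjamini-Hochberg over 15583 genes, threshold 0.05), which was tested on simulated data. A second fit set the mean log2 level of 10 pan-epithelial genes equal in all libraries. Gene models came from GENCODE M21 (GRCm38). Alternatives were DESeq2 1.42.0, limma 3.58.1 (voom), DESeq2 size factors, library size only, no filter, 10 counts in every library, robust shrinkage, removal of mitochondrial and ribosomal RNA genes, an adjusted p under 0.01, scaling by Epcam, Cdh1 or 11 alveolar type 2 genes, and each library left out. A level of 3 counts corresponded to 0.0894 to 0.179 CPM. Total counts were 18380918 to 26847938. The series describes the libraries as biological replicates, but no source links them to mice, so no pairing was used, and replicate numbers here follow accession order.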

Additional observations from a re-analysis of the deposited data

How the results depend on the processing

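At the adjusted p threshold of 0.05 and with all genes as the base of scaling, Ager and Rtkn2 were lower in QZ1-hi and called in every alternative run, and Hopx, Emp2, Akap5 and Pdpn kept their direction. Scaling by library size alone gave 0 members higher, 2509 genes lower and 882 higher in all, and Clic5 at -0.33. It left 2 members with QZ1-hi wholly below (Hopx and Rtkn2), and the share over all genes was not counted. With it 0 other alveolar type 1 genes were higher, and 1 alveolar type 2 gene was lower and 0 higher. Library size scaling moves the median of all genes to -0.44. An adjusted p under 0.01 left 1 member lower (Rtkn2) and 0 higher, with 665 genes lower and 902 higher. Leaving out each library in turn gave 2 to 4 members lower and 0 to 1 higher, 938 to 1201 genes lower and 1136 to 1506 higher, and Clic5 from -0.03 to 0.23. Members lower fell to 2 without QZ1-hi library 1, 2 or 4 or without QZ1-lo library 1 or 4, and members higher to 0 without QZ1-hi library 2. These fits hold fewer samples. Relative to pan-epithelial genes, scaling by Cdh1 alone gave 69 genes lower and Ager at 0.58 with an edgeR adjusted p of 0.0313, and leaving out libraries gave 2 to 5 members higher, 0 lower, 71 to 219 genes lower, 10493 to 11856 higher and Rtkn2 from -0.04 to 0.25. Genes lower were 219 without QZ1-hi library 2, 71 without QZ1-lo library 2 and 93 without QZ1-lo library 3. Replacing that list with alveolar type 2 genes turned 6 members (Ager -1.04, Hopx -0.75, Rtkn2 -1.26, Akap5 -0.74, Clic5 -0.12, Emp2 -0.75), with 5 members lower and 0 higher and 1448 genes lower and 991 higher; the choice of base sets this. The cause of the other shifts was not tested. No paired analysis was possible because the labels give no replicate numbers, those used here follow accession order, and no source links libraries to mice.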
